A study of Mus musculus with 30 samples.

Results

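The 12 h that followed 3 days without doxycycline were measured in a mouse embryonic stem cell clone whose Nanog depends on that drug. The comparison sets 3 arrays taken at the end of those 12 h (day 3 -12h Dox) against 3 arrays taken at their start (day 3 -Dox). These are 6 of the 30 arrays of the series, taken by their labels, and no measured value was used to choose them. The clone, NgR (AINV15_Nanog_Rescue Clone), comes from Ainv15 cells, which express the doxycycline-responsive activator rtTA. It was grown on primary mouse embryonic fibroblasts, in doxycycline at 1 ug/ml until withdrawal, and all groups used here are this 1 clone. Other arrays are set beside the comparison, with 3 in each group. They cover the same 12 h interval on day 1 (day 1 -Dox and day 1 -12h Dox) and on day 5 (day 5 -Dox and day 5 -12h Dox), and cells given doxycycline during the 12 h on day 3 (day 3 +12h Dox). Day 0 cells, with doxycycline throughout, serve as a level to read against.

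Signals are log2 values from Affymetrix Mouse Gene 1.0 ST arrays, so a difference of 1 is a 2-fold change. One value stands for 1 transcript cluster, a set of probes for a transcription unit, and levels are compared between arrays, not between genes. A change is the difference of the group means, 3 arrays against 3, with its standard error. A cluster was called where the p-value of limma, adjusted by Benjamini-Hochberg over all 23385 clusters with a gene symbol, was under 0.05. "Rose" and "fell" are used of called clusters alone. The labels do not say whether the arrays of a group came from separate cultures, so p-values measure the spread between arrays of a group. Standard errors and p-values use that spread pooled over all 30 arrays, except where a fit of the compared groups alone is named. Hour of harvest, time in culture and length of withdrawal all differ between the groups and cannot be told apart, since no cells stayed on doxycycline over the same hours.

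As background, cells sense oxygen through prolyl hydroxylases, among them Egln1 and Egln3, which mark hypoxia-inducible factors (HIFs) for destruction while oxygen is plentiful. When oxygen falls, HIFs persist and bind short DNA elements with a core such as ACGTG. Genes of glucose uptake, glycolysis, lactate production, collagen hydroxylation and mitochondrial clearance are then switched on, as are Egln1 and Egln3 themselves. Nanog is a homeobox factor of the pluripotency network, and embryonic stem cells that lose it tend to leave the naive state. The arrestin-like proteins Txnip and Arrdc4 respond to glucose metabolites at the level of transcription, and Txnip restrains glucose uptake.

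Nanog itself was lower after the 12 h. Its signal was 10.48, 10.48 and 10.57 in the day 3 -Dox arrays and 10.12, 10.18 and 10.21 in the day 3 -12h Dox arrays, and the groups did not overlap. The change was −0.34 ± 0.080 (adjusted p = 0.0223 in limma). Day 0 cells stood at 11.03 ± 0.023 (SD, n = 3), so Nanog was below its starting level at both times. The means on day 1 were 10.24 (day 1 -Dox) and 10.30 (day 1 -12h Dox). They lay between the day 3 means, 10.51 before the 12 h and 10.17 after them. The call was fragile, with adjusted p = 0.104 when only the compared groups were fitted. It was lost when any 1 array other than replicate 3 of day 3 -12h Dox was left out, with changes of −0.31 to −0.36 and adjusted p = 0.0511 to 0.125.

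Over the 12 h, 396 of 23385 clusters were called, which is 1.69% of them. They were mostly rises, with 302 clusters higher (1.29%) and 94 lower (0.402%), so that 76.3% of the calls were rises. The median change was 0.38 among those that rose, −0.40 among those that fell and −0.002 over all clusters. Changes were small: 51 called clusters moved at least 1.5-fold, 43 up and 8 down, and 5 moved at least 2-fold. These 5 were Gbe1, Ier3, Gys1 and Anxa2, which rose, and Meiob, which fell. All 396 called clusters had no overlap between the groups, as had 18.2% of all clusters. Of the called clusters, 368 carried 1 gene symbol, and 36 lay among the dimmest 40% by mean signal. The count was 207 and 188 without replicates 2 and 3 of day 3 -Dox, and 212 and 151 without replicates 1 and 2 of day 3 -12h Dox. Replicate 2 of day 3 -12h Dox had the widest spread of the 6 arrays, an interquartile range of 2.84 against 2.44 to 2.61 in the others. Its part in the result was not tested by itself, but 93 rises and 58 falls were called without it. The share of rises also moved with the scaling, to 57.7% of 634 calls after quantile normalization and 52.9% of 809 with the interquartile range as a covariate, and with array weights in the variance model, to 56.9% of 1228.

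The clearest group was the list of hypoxia and glycolysis genes. Of 21 measured members, 14 rose and 0 fell, against 1.29% of all clusters called higher. Changes were above 0 for 20 of the 21, beside 11531 of all 23385 clusters. That direction was not particular to this list. It was shared by 22 of 23 genes of G1-S and DNA replication, 13 of 14 of cholesterol synthesis and 13 of 14 of the clock. The median change of the hypoxia and glycolysis list was 0.38, a 1.3-fold rise, and the 14 rises ran from 0.33 to 0.93. The list was drawn up with earlier results of these data known, so its direction is a description. Counts stayed between 10 and 13 when 1 array was left out, and were 7 in the fit of the compared groups alone.

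**Figure D1:**
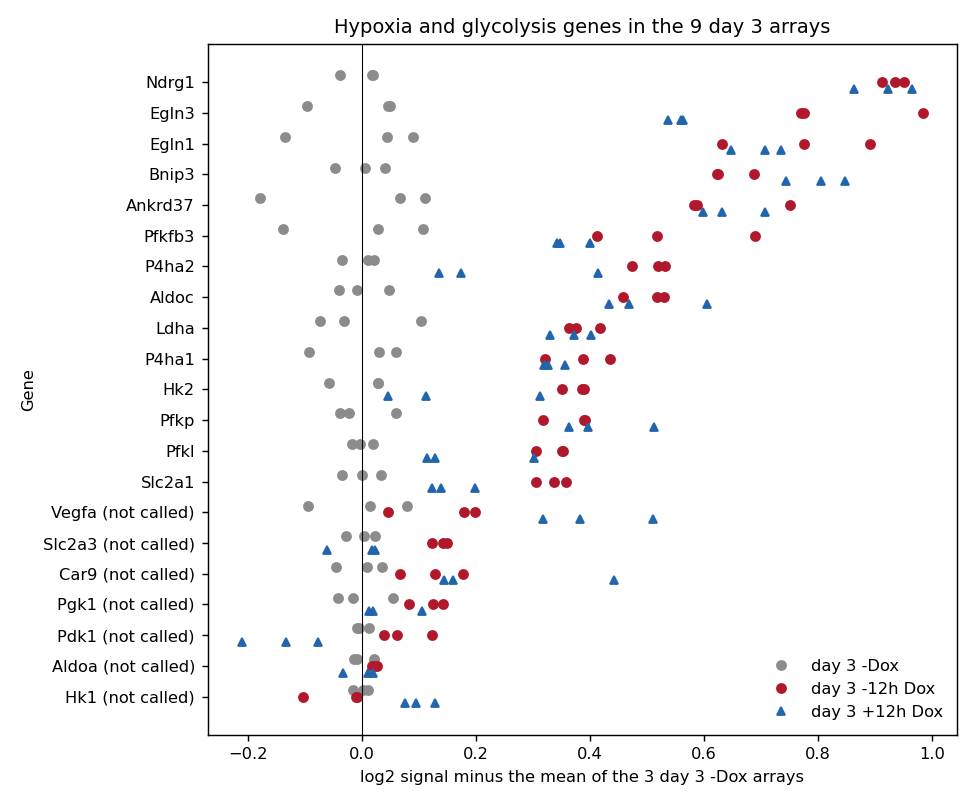
Signal of each hypoxia and glycolysis gene in the 9 day 3 arrays, in log2 units relative to the mean of the 3 day 3 -Dox arrays (x axis), with genes ordered by their change (y axis). Each symbol is 1 array (grey circles, day 3 -Dox; red circles, day 3 -12h Dox; blue triangles, day 3 +12h Dox). For the 14 genes that rose, all red circles lie to the right of all grey ones, from Slc2a1 at 0.33 up to Ndrg1 at 0.93.

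Ndrg1, a stress and hypoxia response gene, had the largest change of the list. Its signal was 8.57, 8.57 and 8.52 at day 3 and 9.51, 9.49 and 9.47 at 12 h later, a rise of 0.93 ± 0.069 (adjusted p = 5.93e-09). The spread within each group was far smaller than the gap between them. Both oxygen-sensing hydroxylases of the list rose as well. Egln3 went from 8.70, 8.70 and 8.56 to 9.43, 9.64 and 9.43, a rise of 0.84 ± 0.11 (adjusted p = 6.03e-05). Egln1 went from 8.66, 8.61 and 8.43 to 9.34, 9.46 and 9.20, a rise of 0.77 ± 0.091 (adjusted p = 1.05e-05). In each gene the lowest array of the later group lay above the highest of the earlier one.

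Other members of the list that rose did so by smaller steps. Bnip3, which directs mitochondria to autophagy, went from 11.17, 11.08 and 11.13 to 11.75, 11.82 and 11.75 (0.65 ± 0.075, adjusted p = 8.5e-06), and a second cluster of the gene gave 0.68. Ankrd37, an ankyrin-repeat gene known as a HIF target, rose by 0.64 ± 0.086. The collagen prolyl hydroxylase subunits P4ha2 and P4ha1 rose by 0.51 ± 0.098 and 0.38 ± 0.087.

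Along glycolysis itself the rises were unequal. The glucose transporter Slc2a1 rose by 0.33 ± 0.062, and the hexokinase Hk2 by 0.38 ± 0.083. At the phosphofructokinase step, the liver and platelet subunits Pfkl and Pfkp rose by 0.34 and 0.37, and Pfkfb3, which makes the allosteric activator of that enzyme, by 0.54 ± 0.090. The aldolase Aldoc rose by 0.50 ± 0.080 and the lactate dehydrogenase subunit Ldha by 0.39 ± 0.054. The 7 members that were not called ranged from −0.04 to 0.14. They were the transporter Slc2a3 (0.14), the cluster taken for the hexokinase Hk1 (−0.04), Pgk1 (0.12), Aldoa (0.02), the pyruvate dehydrogenase kinase Pdk1 (0.07), the vascular growth factor Vegfa (0.14) and the carbonic anhydrase Car9 (0.12). Slc2a3, Pgk1 and Aldoa already had signals above 13 at day 3, near the top of the range of these arrays, whose highest values were 14.07 to 14.17 in that group, and what part this had in their changes was not tested. For Hk1 the brightest cluster was used by rule, but other clusters with like values carry the name of the ribosomal protein gene Rpl17 beside Hk1, so which transcript it measured is not settled here. The other cluster named Hk1 alone stood at 0.27 and was not called either.

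The promoters of the list were searched for ACGTG, core letters that HIFs recognise, and for CACGTG, the E-box, which contains them and which other factors also bind. Other forms of the HIF core were not searched, so a promoter without ACGTG may still hold one. Sequences are from RefSeq (GRCm38.p6) and cover the 250 bases before each gene's start, read on both strands, with overlapping matches counted as 1 place. The rising genes of the list were ordered by their number of ACGTG places, and then by their change. Ldha, Ankrd37, Hk2 and Egln3 came first and are printed, so they were picked for holding these letters. Arrdc4 is printed as a gene that fell. Capitals mark ACGTG or its reverse complement CACGT, joined to CACGTG where both overlap.
Ldha (chr7:46845554-46845803, plus strand): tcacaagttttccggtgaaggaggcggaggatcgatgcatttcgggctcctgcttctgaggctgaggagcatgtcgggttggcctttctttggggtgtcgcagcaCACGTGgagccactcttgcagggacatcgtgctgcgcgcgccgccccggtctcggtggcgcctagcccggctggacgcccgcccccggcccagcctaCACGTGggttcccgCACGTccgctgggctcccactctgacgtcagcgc
Ankrd37 (chr8:45999851-46000100, minus strand): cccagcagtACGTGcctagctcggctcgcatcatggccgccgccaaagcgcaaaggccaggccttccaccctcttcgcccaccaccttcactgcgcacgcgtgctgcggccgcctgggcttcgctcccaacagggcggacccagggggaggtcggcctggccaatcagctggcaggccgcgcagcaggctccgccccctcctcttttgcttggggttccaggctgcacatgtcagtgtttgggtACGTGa
Hk2 (chr6:82774455-82774704, minus strand): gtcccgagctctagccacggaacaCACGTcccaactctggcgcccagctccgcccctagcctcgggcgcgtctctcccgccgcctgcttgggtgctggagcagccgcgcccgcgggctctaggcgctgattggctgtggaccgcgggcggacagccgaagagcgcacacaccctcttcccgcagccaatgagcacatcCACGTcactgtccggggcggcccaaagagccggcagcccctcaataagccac
Egln3 (chr12:54203875-54204124, minus strand): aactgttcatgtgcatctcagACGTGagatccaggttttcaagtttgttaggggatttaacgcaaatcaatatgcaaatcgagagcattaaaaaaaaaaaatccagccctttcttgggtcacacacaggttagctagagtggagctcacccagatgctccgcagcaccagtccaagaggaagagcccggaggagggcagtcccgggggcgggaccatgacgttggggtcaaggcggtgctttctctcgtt
Arrdc4 (chr7:68749239-68749488, minus strand): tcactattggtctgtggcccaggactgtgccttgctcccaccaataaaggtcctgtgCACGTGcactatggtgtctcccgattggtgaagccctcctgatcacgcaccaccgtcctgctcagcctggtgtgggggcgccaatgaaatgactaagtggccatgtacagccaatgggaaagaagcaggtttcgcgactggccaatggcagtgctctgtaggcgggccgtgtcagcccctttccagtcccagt
Ldha held 3 places in this window, 2 of them E-boxes, Ankrd37 and Hk2 held 2 each, and Egln3 held 1. Of the 13 rising list genes with a promoter in the table, 10 (76.9%) held ACGTG in at least 1 promoter. So did 4 of the 6 members that were not called (66.7%). The share was 33.2% among 223 genes that rose, 24.6% among 61 that fell, 20.9% among 15612 genes tested and 18.5% among all 27025 in the table. For CACGTG these 4 shares were 13.9%, 8.2%, 8.1% and 6.9%, and within the list 3 of the 13 rising genes (23.1%) and 0 of the 6 others held it. The 13 rising list genes are counted within the 223 that rose, so their shares are not separate. The list was drawn up from hypoxia and glycolysis genes, and what part that choice had in its shares was not tested. A match is a run of letters, not a measured binding site.

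Several of the largest rises outside the list were metabolic or structural genes. Gbe1, the glycogen branching enzyme, had the largest change, from 7.65, 7.63 and 7.10 to 8.98, 9.19 and 8.90. The rise of 1.56 ± 0.16 (adjusted p = 1.76e-06) is 2.95-fold. Gys1, the muscle form of glycogen synthase, rose by 1.02 ± 0.089 (adjusted p = 1.19e-07), from 8.81, 8.74 and 8.53 to 9.74, 9.79 and 9.62. Both enzymes build glycogen, and in each of them replicate 3 was the lowest array of both groups. Their promoters held no ACGTG in the 250 bases searched.

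The other rises in the first 12 were of mixed kinds. Ier3, an immediate early gene of cell survival, rose by 1.09 ± 0.14, from between 7.89 and 8.03 to between 8.93 and 9.16. Anxa2, a calcium-dependent membrane-binding protein, rose by 1.01 ± 0.12, and Bhlhe40, a transcriptional repressor tied to the clock and to hypoxia, by 0.98 ± 0.15. Krt19, a keratin of simple epithelia, rose by 0.88 ± 0.11, the cytochrome P450 gene Cyp2s1 by 0.81 ± 0.085, and Sfmbt2, a Polycomb-type gene imprinted in the placenta, by 0.78 ± 0.079. Higd1a, a mitochondrial protein induced by hypoxia, rose by 0.76 ± 0.19 (adjusted p = 0.0316), and this call was lost when any 1 of the 6 arrays was left out (adjusted p up to 0.169). Higd1a has 2 clusters, and the value is that of the called cluster with the largest change. A block of 9 clusters that share their values and name members of the Mir467 family rose by 0.62. Such clusters repeat 1 measurement of a dim signal, and the family is encoded within Sfmbt2.

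Further metabolic genes stood among the called rises and are named here after their values were seen. The lactate exporter Slc16a3 rose by 0.65 ± 0.062, the phosphoglucomutase Pgm1, which links glucose to glycogen, by 0.69 ± 0.083, and the glycolytic enzymes Tpi1 and Pgam1 by 0.42 and 0.28. Ero1a, an oxidase of the endoplasmic reticulum, rose by 0.63, the peptide hormone gene Adm by 0.63, Ndufa4l2 by 0.63, the collagen lysyl hydroxylase Plod2 by 0.46, Fam162a by 0.42 and Bnip3l by 0.26. The histone demethylases Kdm3a, Kdm4b, Kdm4c and Kdm6b, which like the Egln proteins use oxygen as a substrate, rose by 0.47, 0.42, 0.40 and 0.37. The fatty acid desaturases Scd1, Scd2 and Fads2, also oxygen-dependent enzymes, rose by 0.64, 0.55 and 0.42. Most of these are known HIF targets or users of oxygen, and since they were picked for having risen, they support nothing by their number.

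Among the falls were 2 of the 3 glucose-responsive arrestins, beside 0.402% of all clusters lower. Txnip fell from 12.20, 12.33 and 12.25 to 11.66, 11.63 and 11.59, a change of −0.64 ± 0.074 (adjusted p = 8.93e-06), with no overlap. Arrdc4 fell from 9.97, 10.16 and 9.99 to 9.53, 9.62 and 9.39 (−0.53 ± 0.089, adjusted p = 0.00118), a call that the fit of the compared groups alone did not make (adjusted p = 0.0562, the highest of its alternatives, the lowest being 3.87e-06). Their relative Arrdc3, the third of the list, was at 0.08 ± 0.088 and was not called. Both genes that fell had stood well above day 0 at day 3, Txnip by 1.37 and Arrdc4 by 0.72. The promoter of Arrdc4 held 1 E-box, in the sequence printed above, and that of Txnip held no ACGTG in this window.

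The other large falls were of mixed kinds. Meiob, a meiotic recombination gene, fell by 1.13 ± 0.24, from 7.49, 7.85 and 6.91 to 6.34, 6.47 and 6.04 (adjusted p = 0.00878). It is a dim cluster, its call was lost without replicate 2 of day 3 -Dox (adjusted p = 0.0964) or replicate 3 of day 3 -12h Dox (adjusted p = 0.0554) and with the compared groups alone (adjusted p = 0.0791), and its alternatives reached down to 9.19e-06. Sycp3, a protein of the meiotic chromosome axis, fell by 0.47 ± 0.10, and these 2 were the only called members of 21 germline and meiosis genes, beside 0.402% of all clusters lower. The call of Sycp3 was lost without replicate 2 of day 3 -Dox (adjusted p = 0.124), without replicates 2 or 3 of day 3 -12h Dox (adjusted p = 0.0603 and 0.0612) and with the compared groups alone (adjusted p = 0.102). Its alternatives reached down to 0.000597, and the list's falls numbered 0 to 2 without 1 array. Pspc1, a paraspeckle protein, fell by 0.66 ± 0.072, Trim36, a ubiquitin ligase, by 0.65 ± 0.089, and Tek, the angiopoietin receptor, by 0.55 ± 0.095. Epp13 (−0.67), Lrrc31 (−0.58), Got1l1 (−0.57), and the dim clusters Olfr1372-ps1 (−0.79), Atp12a (−0.69) and C130073F10Rik (−0.58) completed the 12 largest falls, together with Chac1. Of these, Olfr1372-ps1, Got1l1, C130073F10Rik and Chac1 were not called in at least 1 of the fits without 1 array.

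Chac1, which degrades glutathione and is a target of the stress factor ATF4, fell by 0.59 ± 0.12, and Atf4 itself by 0.38 ± 0.072. Of 24 ATF4 targets and serine and one-carbon genes, these 2 fell and 2 rose, beside 0.402% of all clusters lower and 1.29% higher, the median being −0.14 against −0.002 over all clusters. The 2 that rose were Ddit4, an inhibitor of mTORC1 that is also induced by hypoxia (0.63 ± 0.12), and the lipoprotein receptor Vldlr (0.29 ± 0.072). Of 15 genes of the unfolded protein response, Herpud1 fell (−0.41 ± 0.096) and none rose. The calls of Chac1, Vldlr and Herpud1 were each lost in at least 1 fit without 1 array, and with the compared groups alone 1 of the list rose (Ddit4) and 0 fell.

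**Figure D2:**
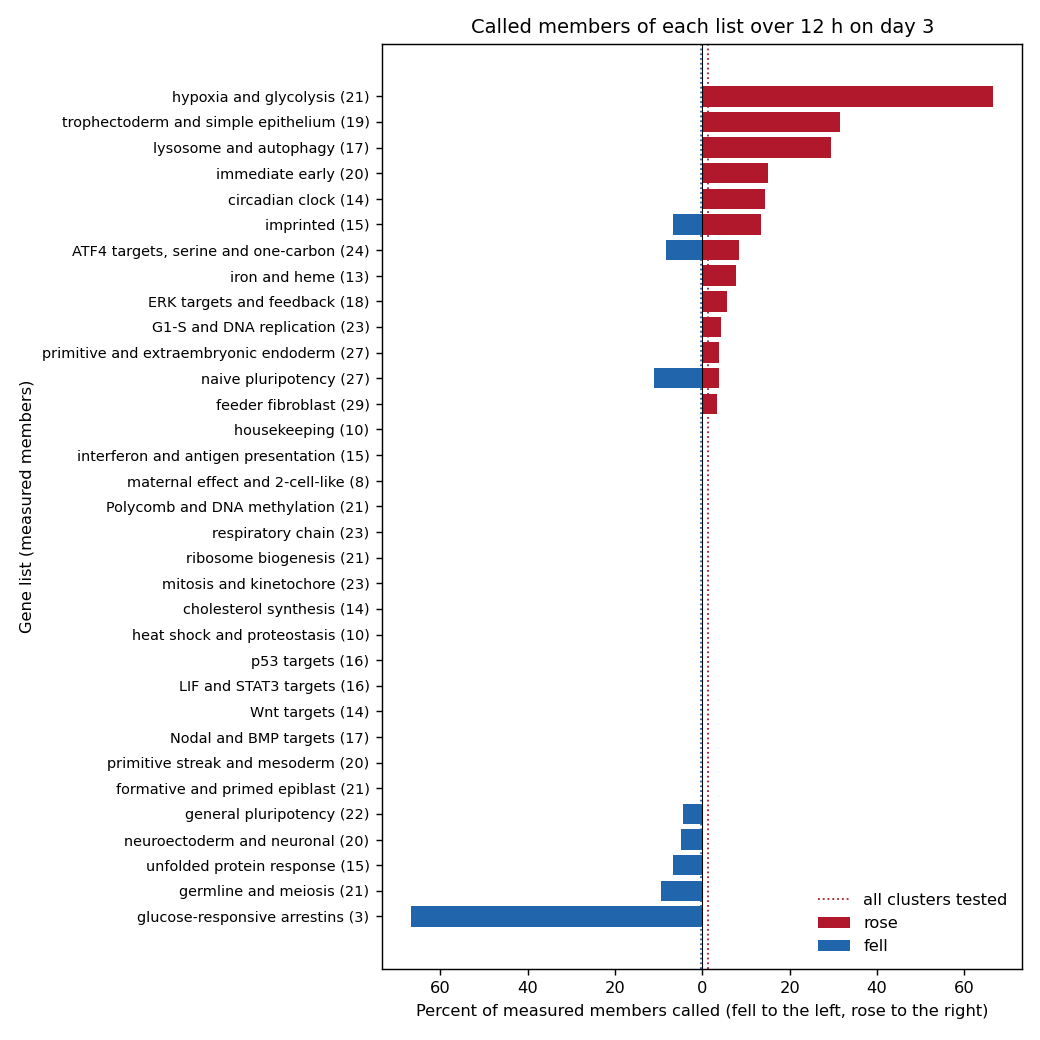
Percent of the measured members of each gene list that rose (red, to the right) or fell (blue, to the left) over the 12 h on day 3, with the number of measured members in brackets. Dotted lines mark the shares of all clusters tested, 1.29% higher and 0.402% lower; the hypoxia and glycolysis bar, 14 of 21, is the longest to the right.

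Keratins and a few placental genes rose within the list of trophectoderm and simple epithelium. Of 19 members, 6 rose and 0 fell, against 1.29% of all clusters higher, with a median of 0.13. Krt19 went from 9.46, 9.42 and 9.12 to 10.32, 10.34 and 9.97, and Krt8 from 11.27, 11.14 and 11.11 to 11.89, 11.82 and 11.91 (0.70 ± 0.090, adjusted p = 2.94e-05). Krt18 rose by 0.51 ± 0.075 and Krt7 by 0.26 ± 0.063. The imprinted placental genes Ascl2 (0.38 ± 0.098) and Peg10 (0.32 ± 0.083) were near the threshold, with adjusted p = 0.0445 and 0.0422, and both calls were lost when any 1 array was left out. Transcription factors that define trophectoderm were not called, with Cdx2 at −0.05, Elf5 at 0.00, Gata3 at 0.09 and Tfap2a at 0.00. Counts for the list were 3 or 4 without 1 array and 2 with the compared groups alone. The mean log2 signal of its 19 members was 8.06 to 8.11 in the day 3 -Dox arrays and 8.24 to 8.33 in the day 3 -12h Dox arrays.

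Lysosomal genes made up the other group with several rises. Of 17 lysosome and autophagy genes, 5 rose and 0 fell, beside 1.29% of all clusters higher, with a median of 0.17. They were the cholesterol transporter Npc1 (0.42 ± 0.089), the protease Ctsa (0.35 ± 0.062), the calcium channel Mcoln1 (0.31 ± 0.064), the membrane glycoprotein Lamp1 (0.27 ± 0.070) and the autophagy receptor Sqstm1 (0.25 ± 0.056). Without replicate 2 of day 3 -12h Dox 1 member was called, without replicates 1, 2 or 3 of day 3 -Dox 3, 3 and 2 were, and with the compared groups alone none was.

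Of 27 naive pluripotency genes, 3 fell and 1 rose, beside 0.402% of all clusters lower and 1.29% higher, with a median of −0.02 against −0.002 over all clusters. Without 1 array 1 or 2 of them fell. Besides Nanog, the junction protein Jam2 fell by 0.53 ± 0.070 (adjusted p = 4.03e-05), from 9.78, 9.84 and 9.87 to 9.25, 9.40 and 9.24, and the AKT coactivator Tcl1 by 0.38 ± 0.096. Prdm14, a naive and germline factor, rose by 0.31 ± 0.075 (adjusted p = 0.0242). The calls of Tcl1 and Prdm14 were lost in at least 4 of the 6 fits without 1 array. Esrrb, Klf4, Klf2 and Dppa3 were not called, at −0.06 ± 0.11, −0.13 ± 0.093, −0.01 ± 0.075 and −0.09 ± 0.14. Klf4, Zfp42 (−0.30 ± 0.097, adjusted p = 0.127) and Tbx3 (−0.21 ± 0.067, adjusted p = 0.115) had no overlap between the groups, as had 18.2% of all clusters. Zfp42 and Tbx3 were called with array weights, quantile normalization or the interquartile range as a covariate. Their adjusted p ran from 0.00377 to 0.331 and from 0.0111 to 0.359 over the alternatives.

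General pluripotency factors gave 1 call in 22, beside 1.69% of all clusters called. It was Sall1, which fell by 0.27 ± 0.071 (adjusted p = 0.046, lost in 5 of the 6 fits without 1 array). The defining stem cell factors Pou5f1 and Sox2 were well above the array medians (7.57 to 7.61) in all 6 arrays, at 11.57 to 11.89 and 11.91 to 12.19. The change of Pou5f1 was 0.20 ± 0.088 and that of Sox2 −0.19 ± 0.080, neither of them called, though neither had overlap between the groups. None of 21 formative and primed epiblast genes was called, which at that share of all clusters is no result about the list. Otx2 was at 0.06 ± 0.11 and Fgf5 at −0.06 ± 0.11. The sign of both turned under some alternatives.

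Calls among markers of other lineages and of the feeder layer stand beside 1.29% of all clusters higher and 0.402% lower. In lists of this size a single call or none is no result about the lineage. Sparc, a matrix protein of parietal endoderm, rose by 0.36 ± 0.075 and was the single call among 27 extraembryonic endoderm genes, where Gata4 was at −0.23 and Gata6 at −0.02, with a sign that turned under some alternatives. Vim, a filament protein of mesenchymal cells, rose by 0.44 ± 0.084 and was the single call among 29 feeder fibroblast markers. The mean log2 signal of the 29 markers was 7.92 to 7.96 at day 3 and 7.95 in all 3 arrays 12 h later, with the collagens Col1a1, Col1a2 and Col3a1 at 0.12, 0.14 and 0.00. Neurod1, a neuronal factor, fell by 0.48 ± 0.11 as the single call among 20 neuroectoderm genes, and none of 20 primitive streak and mesoderm genes was called. The calls of Sparc, Vim and Neurod1 were lost without replicate 2 of day 3 -12h Dox (Sparc, Vim), without replicate 2 of day 3 -Dox (Sparc), in 4 of the 6 fits without 1 array (Neurod1), and with the compared groups alone (all 3). In RNA from whole cultures, fewer cells of a type and less RNA per cell cannot be told apart.

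Calls in the remaining lists stand beside 1.29% of all clusters higher and 0.402% lower. Of 20 immediate early genes, Ier3, Maff (0.34) and Dusp1 (0.32) rose, of 14 clock genes Bhlhe40 and Nr1d1 (0.36), of 23 genes of G1-S and DNA replication Tyms (0.41), and of 13 iron and heme genes the transferrin receptor Tfrc (0.44 ± 0.079, adjusted p = 0.00229). Of 15 imprinted genes, Igf2 (0.63 ± 0.11) and Peg10 rose and the long noncoding RNA Rian fell (−0.48 ± 0.12). No member was called in the lists of Nodal and BMP targets, Wnt targets, LIF and STAT3 targets, p53 targets, heat shock, cholesterol synthesis, mitosis, ribosome biogenesis, the respiratory chain, Polycomb and DNA methylation, interferon, maternal genes or housekeeping, and Ier3 was the single call among ERK targets. These counts use the brightest cluster of each gene. For the list genes Tk1 and Ywhaz that cluster was not called (0.22 and 0.10). Another cluster of each was called higher, Tk1 at 0.40 (adjusted p = 0.0389 in limma) and Ywhaz at 0.24 (adjusted p = 0.0166). With 1.69% of all clusters called, an empty list of this size is no result about its genes. Of the genes of this paragraph named by the rule, Ier3, Bhlhe40, Igf2 and Tfrc kept their calls in all 6 fits without 1 array.

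Levels over the series place these changes. Ndrg1 had means of 8.67 at day 0, 8.69 at day 1 and 8.55 at day 3, reached 9.49 in the further 12 h of day 3, stood at 9.61 at day 5 and reached 10.62 in the 12 h after that. Gbe1 went from 7.46 to 9.02 on day 3, stood at 7.68 at day 5 and went to 8.41 in the next 12 h. Txnip climbed from 10.90 at day 0 to 12.26 at day 3, dropped to 11.63 over the 12 h, and was at 12.43 and 12.12 at day 5 and 12 h later. The end of the 12 h on day 3 thus lay off the line from day 3 to day 5 for Gbe1 and Txnip, whose means at day 5 were near those at day 3. Krt8 went up at each of these times, with 11.17, 11.88 and 12.19 at day 3, 12 h later and day 5.

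**Figure D3:**
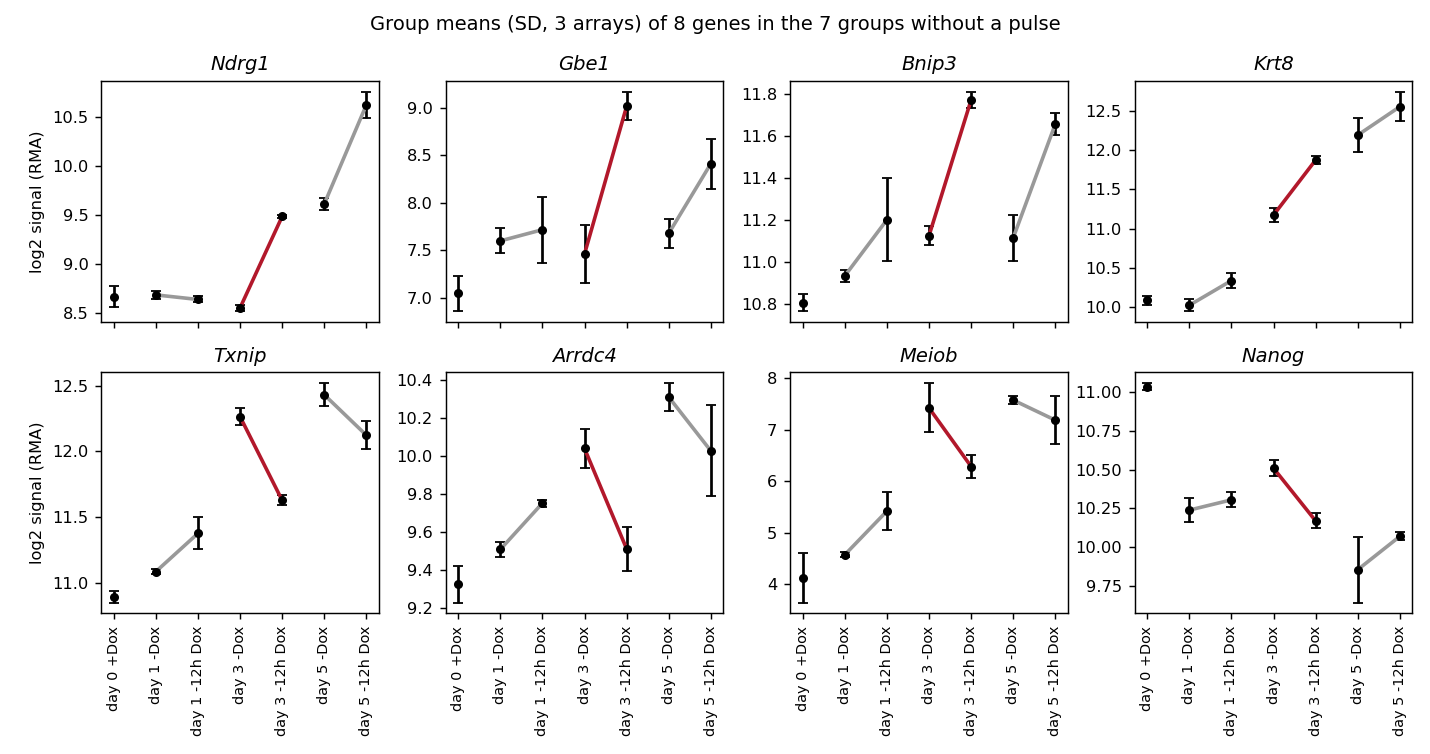
Mean log2 signal of 8 genes (y axis, own scale in each panel) in the 7 groups without a doxycycline pulse (x axis); bars are SDs of 3 arrays. Lines join each day's group to the group harvested 12 h later, red for day 3 and grey for days 1 and 5: Ndrg1 goes from 8.55 to 9.49 and Txnip from 12.26 to 11.63 on day 3.

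The same 12 h interval on day 5 shares no arrays with that on day 3. On day 5, 773 clusters were called (3.31%), 543 higher (2.32%) and 230 lower (0.984%). Of the 302 clusters that rose on day 3, 273 (90.4%) were also higher over the 12 h of day 5, where 45.2% of all clusters were higher. Among them 98 were called higher and 0 lower, and their median change was 0.19. Of the 94 that fell on day 3, 79 (84%) were lower on day 5, 26 called so and 0 called higher, with a median of −0.18. The difference between the day 3 and day 5 changes was called for 12 of the 396, 7 that rose and 5 that fell. These 396 were chosen by their day 3 change, which the difference contains, so the choice itself raises the 12. Over all clusters the difference was called for 24 (0.103%). That count was 1, 2 and 13 without replicates 3, 2 and 1 of day 3 -Dox, 10 and 7 without replicates 1 and 3 of day 3 -12h Dox, 3 and 13 without replicates 2 and 3 of day 5 -Dox, and 39 and 5 without replicates 1 and 3 of day 5 -12h Dox.

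Day 1 gave another picture. There 1462 clusters were called (6.25%), 1174 higher (5.02%) and 288 lower (1.23%). Of the 302 that rose on day 3, 189 (62.6%) were higher over the 12 h of day 1, where 51.3% of all clusters were, with 32 called higher and 13 called lower. Of the 94 that fell on day 3, 34 (36.2%) were lower on day 1, with 4 called lower and 19 called higher. The difference between the changes on day 3 and day 1 was called for 671 clusters (2.87%), 289 where day 3 was higher and 382 where it was lower. It was called for 107 of the 302 rises and 55 of the 94 falls. Both sets were chosen by their day 3 change, which the difference contains, so the choice itself raises these counts. The 671 became 320 and 432 without replicates 2 and 1 of day 3 -Dox, 343 without replicate 3 of day 3 -12h Dox, 389 and 409 without replicates 1 and 3 of day 1 -Dox, and 414 without replicate 2 of day 1 -12h Dox.

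**Figure D4:**
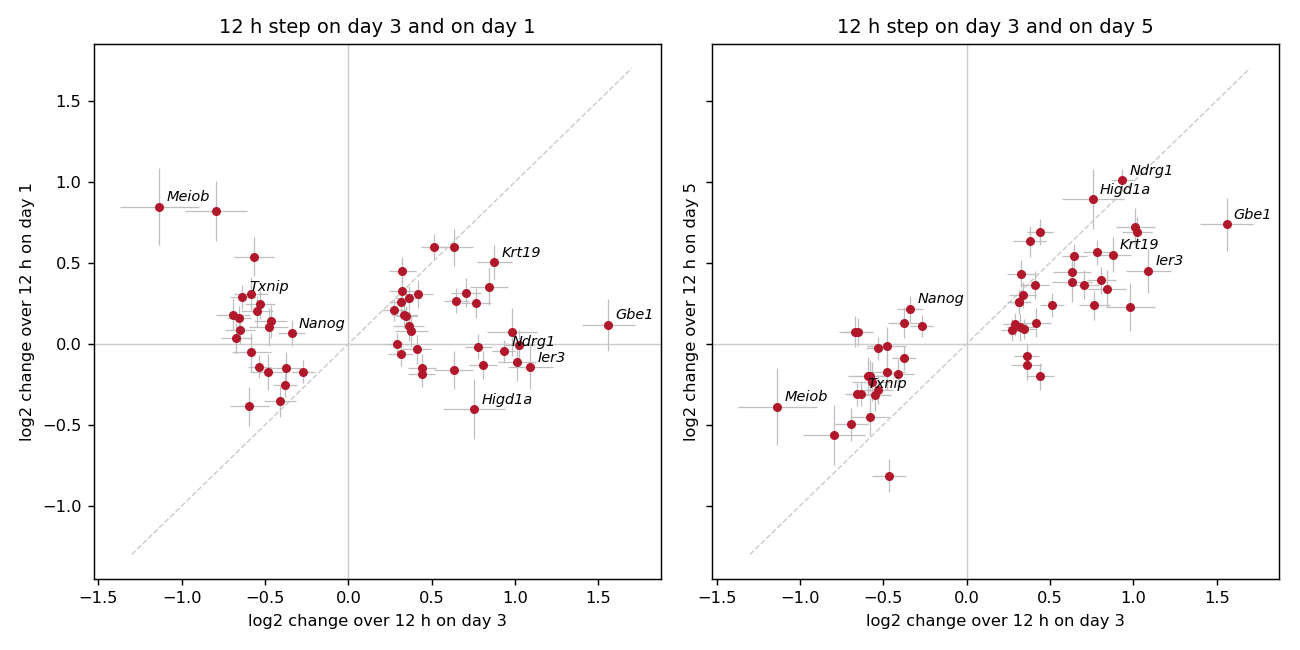
Change over 12 h on day 3 (x axis, log2) against the change over 12 h on day 1 (left, y axis) and on day 5 (right, y axis) for Nanog, the 12 largest rises and falls and the called list members, with standard errors as bars; the dashed line marks equal changes. Gbe1 lies at 1.56 on day 3, 0.12 on day 1 and 0.74 on day 5, and Txnip at −0.64, 0.29 and −0.31.

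The hypoxia and glycolysis genes were among those that differed from day 1. Of the 14 that rose on day 3, 10 had day 1 changes above 0, but 1 of them was called, and the difference from day 1 was called for 6: Ndrg1, Ldha, Ankrd37, Hk2, Egln1 and Bnip3. For Ndrg1 the changes were −0.05 on day 1, 0.93 on day 3 and 1.01 on day 5, and the difference between days 3 and 1 was 0.98 (adjusted p = 4.19e-06). On day 5, 13 of the 14 changes were above 0 and 7 were called higher, and the difference from day 3 was called for Pfkfb3 alone (0.54 on day 3, −0.09 on day 5, adjusted p = 0.0456). Over the whole list, 4 of 21 rose on day 1 and 7 of 21 on day 5, with medians of 0.07 and 0.19 beside 0.38 on day 3. Among the rises outside the list, Gbe1, Gys1, Anxa2 and Ier3 had day 1 changes of 0.12, −0.01, −0.11 and −0.14 and day 5 changes of 0.74, 0.69, 0.72 and 0.45, and all 4 differed from day 1 (adjusted p = 0.000605, 3.38e-05, 0.000235 and 0.000518). None of the 4 was called as different from day 5 (adjusted p = 0.253 to 0.779). The 14 genes and these 4 were picked for their day 3 rises, which the differences contain. The choice itself thus favours a difference from another day.

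Txnip and Arrdc4 had changes above 0 on day 1 and below 0 on days 3 and 5. Txnip was at 0.29 on day 1 (adjusted p = 0.0192) and −0.31 on day 5 (adjusted p = 0.0201), and its difference between days 3 and 1 was −0.93 (adjusted p = 1.98e-05). Arrdc4 was at 0.24 and −0.28, neither of them called, and differed from day 1 with adjusted p = 0.000847. Both genes were named for their day 3 falls, which these differences contain, so the choice itself favours a difference. Among the keratins, Krt18 was at 0.60, 0.51 and 0.24 on days 1, 3 and 5, Krt19 at 0.50, 0.88 and 0.55 and Krt8 at 0.32, 0.70 and 0.36, with no called difference from day 3. Krt7 rose more on day 1 (0.63) than on day 3 (0.26), and that difference was called (adjusted p = 0.0208). Nanog was called as different from both other days, with 0.07 on day 1, −0.34 on day 3 and 0.22 on day 5. Both calls were near the threshold (adjusted p = 0.0469 and 0.0456 in limma). With the compared groups alone, the difference from day 5 was called for 0 clusters, so that of Nanog was lost there.

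Cells given doxycycline during the same 12 h share the day 3 -Dox arrays as their starting point, so values are set side by side. Nanog was 10.89, 11.02 and 10.99 in these pulsed arrays. Ndrg1 was 9.48, 9.42 and 9.52 there, against 9.51, 9.49 and 9.47 without the drug, a difference of −0.02 ± 0.069 (adjusted p = 0.938). For Gbe1 the pulsed arrays gave 8.84, 8.72 and 8.71 (difference −0.26 ± 0.16, adjusted p = 0.461), for Bnip3 11.87, 11.98 and 11.93 (0.15 ± 0.075, adjusted p = 0.345), and for Txnip 11.73, 11.52 and 11.64 (0.00 ± 0.074, adjusted p = 0.986). Across all clusters, 9 were called between pulsed and unpulsed arrays (0.0385%), and 3408 had an unadjusted p under 0.05. Of the 21 hypoxia and glycolysis genes 0 were called in that comparison, which does not show that their levels were equal. Between the pulsed and the day 3 -Dox arrays, 11 of the 21 were called higher and 0 lower, with a median change of 0.33. Of all 23385 clusters, 316 were called higher and 480 lower there. This comparison shares its starting arrays with the 12 h without the drug, so it is no separate support. Vegfa and Pdk1, not called over the 12 h without doxycycline, had pulsed means of 9.41 and 10.80 against 9.15 and 11.01.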

How the data were processed

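Total RNA (Trizol, then RNeasy with DNase I, per the labels' protocols) was measured on Affymetrix Mouse Gene 1.0 ST arrays. Signals per transcript cluster are log2 values deposited by the authors, and the submitters' processing notes name RMA and Affymetrix Expression Console. RMA subtracts background, normalizes between arrays and summarises probes, which can compress fold changes; the deposited arrays still differ in spread. Versions and the annotation release are not given in the sources used here. The array annotation named 21780 of 28815 clusters with 1 symbol, 1605 with several and 5430 with none, and the 23385 with a symbol were tested. No 2 arrays of a group held identical values.

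All 30 arrays were fitted in limma 3.58.1 (R 4.3.3) with a mean for each group; no batch term was possible, as dates are not in the labels. Group differences were tested with moderated statistics and Benjamini-Hochberg adjustment, and the code was tested on simulated data. Arrays have no read depth, and 3 arrays per group limit the precision. The members and the 33 gene lists (601 genes, 553 measured; the others were not analysed here) were chosen with earlier results of these data known. A gene with several clusters is given by the one with the highest mean. Among the largest rises, falls and differences between days, the called cluster with the largest change was taken instead. The rule for named genes took Nanog, the 12 largest called rises and falls with 1 symbol and no overlap, up to 4 called members of each list, the 5 largest called differences from each other day, and a core set (Pou5f1, Sox2, Esrrb, Klf4, Klf2, Tbx3, Prdm14, Zfp42, Dppa3, Otx2, Fgf5, Gata6 and Krt18). Members given as not called are part of it, and the remaining called hypoxia, keratin and lysosome members were added. Same-numbered replicates of the compared groups had deviations correlated at −0.195, 0.271 and 0.405, so the numbers were not taken as pairs. Alternatives changed the variance model (trend and robust, or array weights), the scaling (median centring, quantile normalization, interquartile range of each array as a covariate), the clusters (without the dimmest 40%, or with those that have no symbol), the samples (compared groups alone, each array left out), the replicate block and a 1.5-fold minimum. Leaving out clusters that repeat the values of another was added after the data were seen.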

Additional observations from a re-analysis of the deposited data

Results flagged for a closer look

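The change over 12 h differed between days by an interaction test in limma. It differed between day 3 and day 1 for 671 clusters and between day 3 and day 5 for 24, at an adjusted p under 0.05 and with 3264 and 1626 clusters at an unadjusted p under 0.05. The 5 largest differences from day 1, as day 3 minus day 1, were Meiob (−1.98), Olfr1372-ps1 (−1.61), Gbe1 (1.44), the tetraspanin Tspan2 (−1.37) and the zinc finger gene Zfp428 (1.23). Tspan2 rose by 0.94 on day 1 and fell by 0.43 on day 3 and by 0.53 on day 5, and Zfp428 fell by 0.52 on day 1 and rose by 0.71 and 0.62 on days 3 and 5.

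The 5 largest differences from day 5, as day 3 minus day 5, were the placental genes Plac1 (−1.26) and Phlda2 (−1.25), the contractile genes Acta2 (1.05) and Tagln (0.97), and the interferon-induced gene Rtp4 (−0.94). None of the 5 was called on day 3, where the changes were 0.45, 0.35, 0.29, 0.33 and 0.01. On day 5 Plac1 and Phlda2 rose by 1.71 and 1.59 and Rtp4 by 0.95, while Acta2 and Tagln fell by 0.76 and 0.65. Acta2 was the one of the 5 whose difference was called in every alternative but the fit of the compared groups alone (adjusted p = 0.0723).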

How the results depend on the processing

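Of the 53 called genes named by the rule besides Nanog, 22 stayed called in every alternative and 28 in all 6 fits without 1 array, while 25 were lost in at least 1 of these. The count of 396 was 1228 with array weights (699 higher, 529 lower), 55 with only the compared groups fitted (43 and 12), 634 after quantile normalization (268 lower), 809 with the interquartile range as a covariate (381 lower) and 51 at a 1.5-fold minimum. Without 1 array it ran from 151 to 280, with 93 to 229 higher and 42 to 61 lower. Hypoxia and glycolysis rises were 7 with the compared groups alone. Nanog stayed at −0.34 there (adjusted p = 0.104), and ran from −0.36 to −0.31 without 1 array. The day 3 minus day 1 count of 671 was 3181 with array weights, 264 with the compared groups, 1223 after quantile normalization, 1748 with the covariate and 1015 without the lowest 40% of signal, and the day 3 minus day 5 count of 24 was 966, 0, 58 and 136 in the first 4 of these. Without 1 array they ran from 320 to 794 and from 1 to 39. The sign turned for genes not called: Gata6 (0.0395 with array weights, 0.0071 after quantile normalization, −0.0917 to 0.0414 without 1 array), Otx2 (−0.0124 with the covariate) and Fgf5 (−0.177 to 0.0447 without 1 array). Why these settings moved the counts was not tested.

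The replicate number as a block gave 330 calls, 249 higher, against 396 without it, and among the genes named by the rule it ended the calls of Sall1, Ascl2, Dusp1, Nr1d1 and Peg10 and no others. Genes named outside the rule were not refitted under the alternatives one by one. No read depth exists, and 36 of the 396 called clusters were dim.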
